A study of Mus musculus with 11 samples.

Results

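The genes described here encode the type I classical cadherins, Cdh1 (E-cadherin), Cdh2 (N-cadherin), Cdh3 (P-cadherin), Cdh4 (R-cadherin) and Cdh15 (M-cadherin), together with Cdh13 (T-cadherin), which is held at the cell surface by a lipid anchor. These 6 genes, of 38924 listed, were taken from the RNA-Seq counts of purified cerebellar granule cell precursors (GCps) by gene symbol. They were singled out with it known that Cdh4 and Cdh15 were higher in the mutant, so the differences between genotypes below are descriptions of the members and carry no test of their own. RNA-Seq covered 2 libraries of Chd7-deficient GCps (cko, Math1-Cre Chd7fl/fl) and 2 of control GCps, all from C57Bl/6J mice at postnatal day 7. The control genotype is given as Chd7flox/+ in the sample labels and as 2 floxed alleles in the extraction notes. Math1-Cre removes Chd7, which encodes a chromatin remodeler, from the granule cell lineage. The methods state that lobules IX and X were left out and that cerebella of each genotype were pooled before separation on a Percoll gradient. For RNA-Seq they give cell numbers per cerebellum, so how many animals made up each library is not clear.

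Classical cadherins are transmembrane proteins that join cells by binding a cadherin on the neighboring cell through the first of their extracellular repeats. Their cytoplasmic tail binds catenins, which link the junction to actin. In the brain, N-cadherin is the broadly used member, R-cadherin marks subsets of neurons, and M-cadherin, best known from myoblasts and muscle satellite cells, has also been described in cerebellar granule cells. T-cadherin has no cytoplasmic tail and binds adiponectin.

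The sequences shown first mark where the members part ways in the adhesive repeat, which the choice of genes did not use. All are coding sequence of GENCODE vM21 on GRCm38 (mm10), plus strand. The first set starts at the codons of the basic site at which the precursor is cut, and the capitals mark the second codon after that site, which encodes the tryptophan that type I cadherins insert into their partner.
Cdh4: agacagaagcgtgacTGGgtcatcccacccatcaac
Cdh1: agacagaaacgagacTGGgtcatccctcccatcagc
Cdh3: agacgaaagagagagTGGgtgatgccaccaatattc
Cdh15: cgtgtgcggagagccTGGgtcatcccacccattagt
Cdh13: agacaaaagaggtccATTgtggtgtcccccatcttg
These stretches lie at chr2:179797548-179797583 for Cdh4, chr8:106653570-106653605 for Cdh1, chr8:106536606-106536641 for Cdh3, chr8:122856580-122856615 for Cdh15 and chr8:118757404-118757439 for Cdh13. They fall in coding exon 4, or in coding exon 2 for Cdh15. The tryptophan codon TGG was present in Cdh4, Cdh1, Cdh3 and Cdh15, and Cdh13 had an isoleucine codon in its place.

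The second set shows the region of the first repeat that holds the histidine-alanine-valine recognition motif in Cdh4. The capitals mark the Cdh4 motif and the codons aligned with it in the other members.
Cdh4: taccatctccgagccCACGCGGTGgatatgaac
Cdh1: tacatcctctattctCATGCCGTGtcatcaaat
Cdh3: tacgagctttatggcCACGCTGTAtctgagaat
Cdh15: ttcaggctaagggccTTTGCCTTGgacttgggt
Cdh13: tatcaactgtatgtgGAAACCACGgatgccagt
Each crosses an exon boundary, between coding exons 5 and 6 at chr2:179843119-179847246 for Cdh4, chr8:106653914-106656850 for Cdh1, chr8:106536966-106537100 for Cdh3 and chr8:118851866-118968075 for Cdh13, and between coding exons 3 and 4 at chr8:122857510-122859264 for Cdh15. The histidine-alanine-valine motif began at codon 79 after the cut site in Cdh4, Cdh1, Cdh3 and Cdh2, whose sequence is not printed here. It was found 0 times in the reading frames of Cdh15 and Cdh13. Over the first 110 codons after the cut site, the encoded residues matched those of Cdh4 at 77 of 110 aligned positions in Cdh2, 59 of 110 in Cdh1, 56 of 110 in Cdh3, 54 of 108 in Cdh15 and 44 of 109 in Cdh13. Of the other members, Cdh2 was thus the closest to Cdh4 in this repeat, and the pair that was higher in cko GCps, Cdh4 and Cdh15, differed in the recognition motif. The reading frames ran from 2739 bp in Cdh4 to 2142 bp in Cdh13.

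Counts assigned to genes came to between 61836588 and 77346481 per library. Of the genes fixed as GCp markers, all 9 were detected in each library, with the zinc finger gene Zic1 at 1485 to 1707 CPM (reads of the gene relative to the effective library size) and the GCp transcription factor gene Atoh1 at 25.6 to 37.0 CPM. Of the 9, 0 passed the test between genotypes. In that fit 4 had an unadjusted p under 0.05, as had 2231 of all 16436 tested genes: Pax6 and Neurod1 lower, Ptch1 and Ccnd2 higher. In DESeq2 2 passed. Neurod1 was at 1051 and 999 CPM in control and 475 and 780 CPM in cko libraries, and Ccnd2 at 1132 and 1187 CPM in control and 1645 and 1537 CPM in cko libraries. The gene-level count did not register the deletion: Chd7 was at 322 and 319 CPM in control and at 392 and 355 CPM in cko libraries, so the directions below rest on the labels. The paper reports efficient Chd7 deletion in purified P7 GCps by quantitative RT-PCR, which is not part of these counts. Xist, expressed from the silenced X chromosome of females, reached 793 CPM in cko replicate 1 but stayed at or below 0.548 CPM elsewhere. Ddx3y, on the Y chromosome, was at 69.1 and 63.7 CPM in control, 0 in cko replicate 1 and 68.2 CPM in cko replicate 2. The cko libraries thus came from different animals, of different sex, and so not from a shared pool. Both control libraries had the male pattern, so that sex is partly confounded with genotype. No source states that the control libraries came from separate animals, and the smallest p that exact permutation of 2 against 2 libraries allows is 0.333. In bulk RNA, fewer cells of a type and less RNA per cell cannot be told apart.

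**Figure D1:**
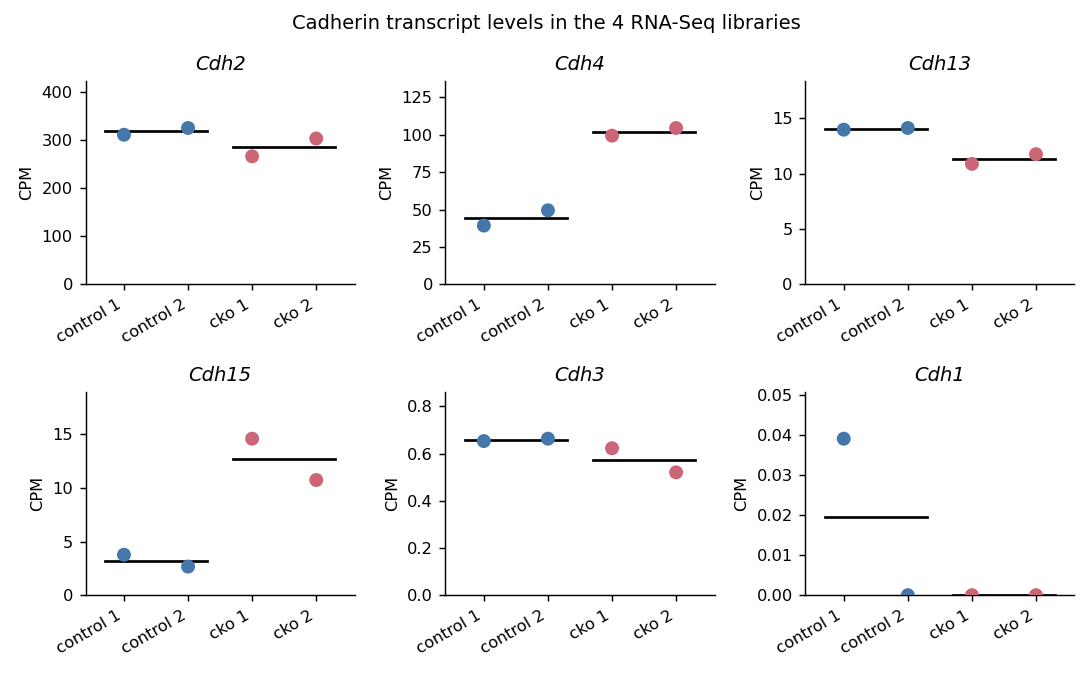
Transcript level in CPM (vertical axes, each from 0) of the 6 cadherin genes in the 2 control (blue) and 2 cko (red) libraries, with 1 point per library and a line at the genotype mean. Cdh4 and Cdh15 lie above both controls in both cko libraries, whereas Cdh2, Cdh13 and Cdh3 lie below both controls by smaller steps, and Cdh1 is at or near 0 throughout.

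Cdh2, the main classical cadherin of neural tissue, was the most abundant member. Control libraries held 311 and 325 CPM and cko libraries 266 and 303 CPM, from counts of 18651 to 23828. Both cko values lay below both control values, with the control libraries closer to each other than the cko libraries. The log2 fold change was -0.16 (standard error 0.11, 95% interval -0.41 to 0.09), and Cdh2 did not pass (threshold 0.05 on the Benjamini-Hochberg adjusted p of edgeR's quasi-likelihood fit over all tested genes).

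Cdh4, which encodes R-cadherin, a protein that can bind N-cadherin as well as itself, lies on chromosome 2 from 179442431 to 179899373. Control libraries held 39.4 and 49.6 CPM and cko libraries 99.5 and 104.6 CPM, from counts of 2991 to 7670. The groups did not overlap, and the gap between them was several times the difference within either pair. The log2 fold change was 1.20 (standard error 0.13, 95% interval 0.89 to 1.51), or 2.29-fold. Leaving out each library in turn gave 1.04 to 1.37, which describes a gene chosen as higher and is not a test.

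Cdh15, which encodes M-cadherin, lies on chromosome 8 from 122847966 to 122867397. Levels were 3.77 and 2.67 CPM in control and 14.6 and 10.7 CPM in cko libraries, from counts of 161 to 1126. The lower cko value was still well above the higher control value, although each pair differed more within itself, relative to its mean, than the Cdh4 pairs did. The log2 fold change was 1.97 (standard error 0.24, 95% interval 1.39 to 2.55), or 3.93-fold. Without control replicate 2, it was 1.75. Without cko replicate 1, the library that differed in sex, it was 1.74, while Cdh4 was at 1.24. That fit holds a single cko library, and the part of sex in either difference was not tested.

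Cdh13, the T-cadherin gene, spans 1041189 bp on chromosome 8, the longest locus of the 6, from 118283733 to 119324921. The control libraries held 13.97 and 14.1 CPM and the cko libraries 10.9 and 11.8 CPM, from counts of 723 to 1070. The control values nearly coincided, and both cko values lay below them. The log2 fold change was -0.31 (standard error 0.13, 95% interval -0.63 to 0.01), and Cdh13 did not pass.

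The epithelial members were scarce. Cdh3, on chromosome 8 from 106510891 to 106557297, stood at 0.653 and 0.663 CPM in control and at 0.622 and 0.520 CPM in cko libraries, from only 32 to 50 reads. Its log2 fold change was -0.20 (standard error 0.31) and did not pass, and the 95% interval of -0.93 to 0.53 leaves room for a change in either direction. Cdh1, on the same chromosome from 106603351 to 106670246, had 3 reads in control replicate 1 and 0 in the other libraries, for which the floor of 3 counts was 0.0389 to 0.0497 CPM. Cdh1 was not tested, and a difference between genotypes was not detectable at this depth.

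In all, 2 of the 6 members were called higher and 0 lower, 3 did not pass and 1 was not tested. The fit called 0.809% of the 16436 tested genes higher and 0.773% lower, 1.58% in either direction, and since the rule named the 2 risers, nothing is read from that count. Both cko libraries lay above both controls in 2 members, which held for 22.7% of tested genes, and below both controls in 3, which held for 21.2%. The median log2 fold change of the 5 tested members was -0.16, against -0.00056 over all tested genes.

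Per length, the members differed widely. In the control libraries the mean level was 39.4 ± 1.23 CPM per kilobase of exon for Cdh2 (SD, n = 2 here and below), 6.13 ± 0.993 for Cdh4, 1.25 ± 0.0095 for Cdh13, 0.991 ± 0.240 for Cdh15 and 0.150 ± 0.0016 for Cdh3. Cdh13 and Cdh15 were the neighbors in this order that stood closest, their means differing by about the SD of Cdh15. In the cko libraries the levels per kilobase were 35.3 ± 3.25 for Cdh2, 14.1 ± 0.499 for Cdh4, 3.90 ± 0.838 for Cdh15, 1.01 ± 0.0551 for Cdh13 and 0.130 ± 0.0165 for Cdh3. Cdh15 had thus passed Cdh13 in the order, and every neighboring pair was further apart than its SDs. The exon union of Cdh13, drawn from 8 transcripts, is 11233 bp long. Over the length of its longest protein-coding transcript, chosen as an alternative after the data were seen, Cdh13 came to 3.71 CPM per kilobase in control and 2.99 in cko, still below Cdh15 in the cko libraries and then clearly above it in the control libraries.

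Set against the sum of the 6 per-length levels, Cdh2 made up 82.8% and 81.6% in the control libraries and 63.1% and 66.6% in the cko libraries. Cdh4 made up 11.7% and 13.8% in control and 26.2% and 25.5% in cko, and Cdh15 2.49% and 1.66% in control and 8.59% and 5.85% in cko. By this measure the cko libraries held a more mixed set of these transcripts, still led by Cdh2, which restates the rise of the genes known to be higher when chosen. The shares, and the ratios that follow, rest on the exon union and shift with other lengths. The closing section gives levels per kilobase over other lengths, but no shares or ratios. The level of Cdh2 per kilobase was 7.11 and 5.90 times that of Cdh4 in the control libraries and 2.41 and 2.61 times in the cko libraries. Among 14554 tested protein-coding genes ranked by level per kilobase, Cdh2 was at percentile 91.1 in control and 90.4 in cko, Cdh4 at 54.9 and 75.1, and Cdh15 at 25.5 and 44.4.

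**Figure D2:**
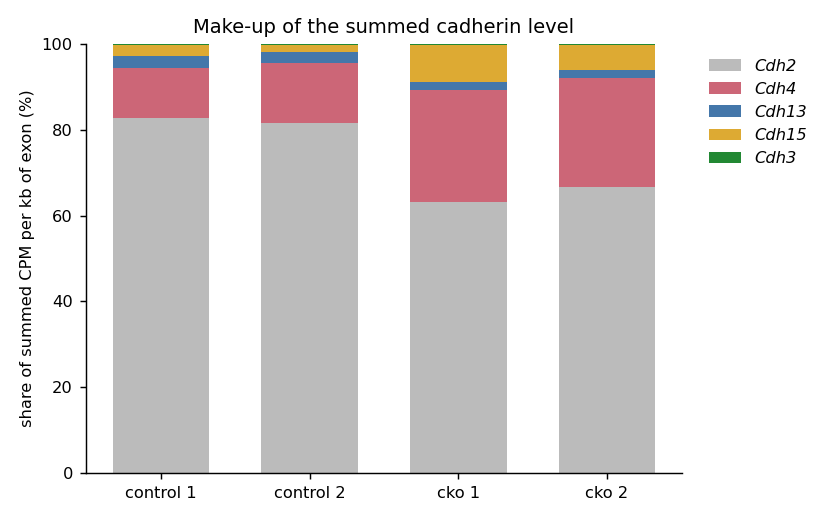
Share of each gene in the summed level per kilobase of exon (vertical axis, percent) in each of the 4 libraries, as stacked bars. Cdh2 falls from 82.8% and 81.6% in the control libraries to 63.1% and 66.6% in the cko libraries as the Cdh4 and Cdh15 shares widen; Cdh1, at most 0.0184%, is not drawn.

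Type II classical cadherins form the sister group, with a differently built first repeat. Of 13 genes, 11 were tested, of which 0 were called higher, 2 lower and 9 did not pass. Cdh10 was at 17.2 and 20.4 CPM in control and 3.75 and 4.10 CPM in cko libraries (log2 fold change -2.26, standard error 0.16), and Cdh7 was at 7.79 and 12.1 CPM in control and 2.52 and 3.28 CPM in cko libraries (-1.78, standard error 0.27). Cdh7 lost its call without control replicate 2 (-1.43) and without cko replicate 1 (-1.59). The median over the 11 was -0.21, and 3 of them passed in DESeq2. The calls thus ran upward among the type I genes, both being genes that the choice named as higher, and downward among the type II genes. The medians lay on the same side of 0, at -0.16 for the 5 tested members and -0.21 for the type II genes. A difference between the families was not tested, since members of the first were chosen by their direction.

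**Figure D3:**
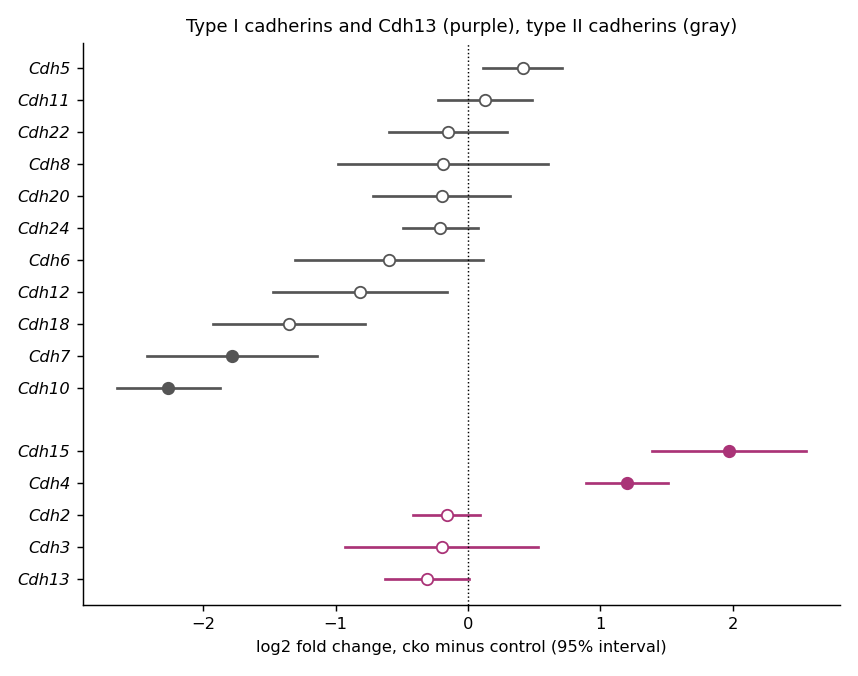
Log2 fold change of cko against control (horizontal axis) with its 95% interval for the 5 tested members (purple) and the 11 tested type II cadherins (gray), 1 point per gene. Filled points passed the threshold: Cdh4 (1.20) and Cdh15 (1.97) to the right of 0, Cdh10 (-2.26) and Cdh7 (-1.78) to the left.

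Genes that serve cadherin adhesion were measured beside the members. Over 5 lists with 41 genes, 38 were tested and 0 passed edgeR's quasi-likelihood test in either direction. In that fit 5 had an unadjusted p under 0.05, as had 2231 of all 16436 tested genes, so nothing is read from such counts alone. In DESeq2 1 of them, Zeb1, passed, where 458 of 15901 genes passed as higher and 433 as lower. Of 11 catenins and actin linkers, 10 were tested and 0 passed (2 with an unadjusted p under 0.05, 0 in DESeq2), with a median log2 fold change of -0.09. Ctnnb1, the gene of beta-catenin, which binds the cadherin tail and also acts in Wnt signaling, was at 992 and 1033 CPM in control and at 995 and 1113 CPM in cko libraries, a log2 fold change of 0.06 (standard error 0.11), although 14.6% of its exonic bases are shared with an opposite-strand gene, so that these counts are uncertain. Over the 10 tested genes the values ran from -0.27 for Ctnna2, which encodes the neuronal alpha-catenin, to 0.23 for Afdn, which encodes the actin-binding protein afadin. The gene not tested was the catenin gene Ctnna3, at 0.274 and 0.133 CPM in control and 0.0519 and 0.0976 CPM in cko libraries.

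Nectins, immunoglobulin-like proteins that form junctions together with cadherins, gave 0 calls among 4 tested genes (1 with an unadjusted p under 0.05, 0 in DESeq2). Nectin2, which averaged the highest level per kilobase over the 4 libraries with Nectin3 close to it and above it in the control mean, was at 22.9 and 20.6 CPM in control and 17.7 and 20.4 CPM in cko libraries (log2 fold change -0.19, standard error 0.13). Nectin1, the one at an unadjusted p under 0.05, was at 15.5 and 15.7 CPM in control and 29.8 and 18.9 CPM in cko libraries, both cko values above both controls. It did not pass at a log2 fold change of 0.64 (standard error 0.22), but passed at 0.94 without cko replicate 2. Among 9 ligands and signaling partners 0 passed (1 with an unadjusted p under 0.05, 0 in DESeq2). Cdc42, which encodes a small GTPase that organizes actin at junctions, was at 499.8 and 503 CPM in control and 447 and 515 CPM in cko libraries. Fgfr1, the FGF receptor gene whose product N-cadherin engages, was the lowest of this list, with a log2 fold change of -0.38 (standard error 0.11) that passed only with the replicate number as a block; the adiponectin gene Adipoq, for the T-cadherin ligand, reached no more than 0.584 CPM.

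Maturation, cleavage and turnover genes gave 0 calls among 10 tested (0 with an unadjusted p under 0.05 and 0 in DESeq2), with log2 fold changes from -0.20 to 0.21. Adam10, the protease that sheds the N-cadherin ectodomain, was at 235 and 223 CPM in control and 216 and 234 CPM in cko libraries. Of 7 transcriptional repressors of E-cadherin, 5 were tested and 0 passed (1 with an unadjusted p under 0.05). Zeb1, the most abundant of them per length, was at 187 and 201 CPM in control and at 263 and 257 CPM in cko libraries. Its log2 fold change was 0.42 (standard error 0.09, 95% interval 0.19 to 0.64, adjusted p = 0.101 in the edgeR fit), and it passed in DESeq2, without the filter on low counts and with a replicate block.

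**Figure D4:**
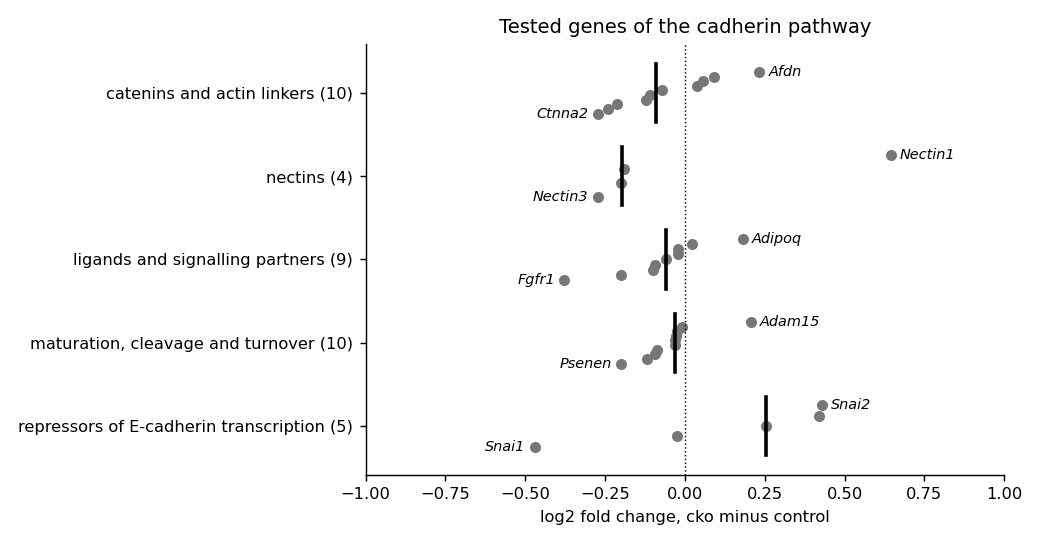
Log2 fold change of cko against control (horizontal axis) for the 38 tested genes of 5 cadherin pathway lists (number tested in parentheses), 1 gray point per gene, black bars at list medians and the lowest and highest gene of each list named. No point passed the threshold, and the values run from -0.47 (Snai1) to 0.64 (Nectin1).

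The genes whose pattern over the 4 libraries was nearest to that of Cdh4 and Cdh15 were found by the Euclidean distance between log2 CPM values centered on each gene's mean, among 11867 protein-coding genes. For Cdh4 these were Olig2 (distance 0.05), Ccbe1 (0.07), known from lymphatic vessel growth, Ntf3 (0.12) and BC034090 (0.13). Olig2, which encodes a bHLH transcription factor, was at 2.66 and 3.36 CPM in control and 6.94 and 6.96 CPM in cko libraries. Ntf3, which encodes the neurotrophin NT-3, was at 1.98 and 2.35 CPM in control and 5.19 and 5.58 CPM in cko libraries. For Cdh15 the nearest were Olig3 (0.08), the tetraspanin gene Tspan11 (0.21), the potassium channel gene Kcnk13 (0.35) and Pnoc (0.47), which encodes the precursor of nociceptin. Olig3, a bHLH gene of the rhombic lip, was at 7.75 and 5.10 CPM in control and at 28.4 and 21.7 CPM in cko libraries, with cko replicate 1 and control replicate 1 the higher of their pairs, as for Cdh15. Being chosen for likeness to genes that differ between genotypes, these genes necessarily differ too.

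Genes next to the members did not move with them past the threshold. Of the 6 members 4 lie on chromosome 8, where Cdh3 and Cdh1 are 46.1 kb apart. The nearest tested protein-coding genes on each side made up 11 genes, of which 0 passed edgeR's quasi-likelihood test and 0 passed in DESeq2, with 1, Hsbp1, at an unadjusted p under 0.05. On the near side of Cdh4, 12.8 kb away, Taf4 had a log2 fold change of 0.15 (standard error 0.12), and Cdh26, 955 kb away on its other side, one of -0.04 (standard error 0.47). Cdh15 lies between Acsf3 (30.1 kb away, 0.18, standard error 0.10) and Ankrd11 (16.4 kb away, 0.30, standard error 0.16), both with each cko value above both controls. Cdh13 lies between Mphosph6 (482 kb away, -0.23, standard error 0.12) and Hsbp1 (19.6 kb away, -0.28, standard error 0.10), both with each cko value below both controls, as had Chst9 beside Cdh2. Over all tested genes, both cko libraries lay above both controls in 22.7% and below both in 21.2%, so nothing is read from these orders. Around the other members the values were -0.09 for Zfp90 (79.5% of its exonic bases shared with an opposite-strand gene), -0.14 for Gm10073 and 0.18 for Tango6, beside Cdh3 and Cdh1, and -0.87 (standard error 0.58) for Chst9 and -0.17 for Dsc2, beside Cdh2.

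Because M-cadherin is also a muscle protein, the skeletal muscle and myoblast markers were read beside Cdh15. Of 10 genes 8 were tested, 4 were called higher (Myog, Myh3, Tnnt3 and Ckm), 0 lower, and 4 did not pass; 8 had an unadjusted p under 0.05, and 6 passed in DESeq2. Their summed level was 13.5 and 11.6 CPM in control and 37.3 and 57.1 CPM in cko libraries, and the median log2 fold change of those tested was 2.64. Myog, the gene of the myoblast differentiation factor myogenin, was at 0.313 and 0.414 CPM in control and 2.57 and 3.43 CPM in cko libraries, and the muscle creatine kinase gene Ckm at 0.117 and 0.0497 CPM in control and 0.947 and 2.37 CPM in cko libraries, the latter uncertain since 15.5% of its exonic bases are shared with an opposite-strand gene. The satellite cell and myoblast genes Myf5 and Pax7 were at 0 in all libraries and at no more than 0.506 CPM, respectively, and Myod1 was at 6.37 and 6.68 CPM in control and 12.1 and 8.23 CPM in cko libraries. Cdh15 in cko replicate 1 was 1.36 times its level in cko replicate 2, as against 0.652 for the summed muscle list, 0.542 for Myh3 and 1.48 for Myod1. In 9 of the 10 muscle genes both cko libraries lay above both controls, as for Cdh15 and for 22.7% of all tested genes. Only Myod1 and Pax7 shared the order of Cdh15 within the cko pair, and the part of the muscle genes in the Cdh15 difference was not tested. With a library left out, the number of muscle genes called was 1 without either control replicate (Myog both times) and 6 without either cko replicate.

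**Figure D5:**
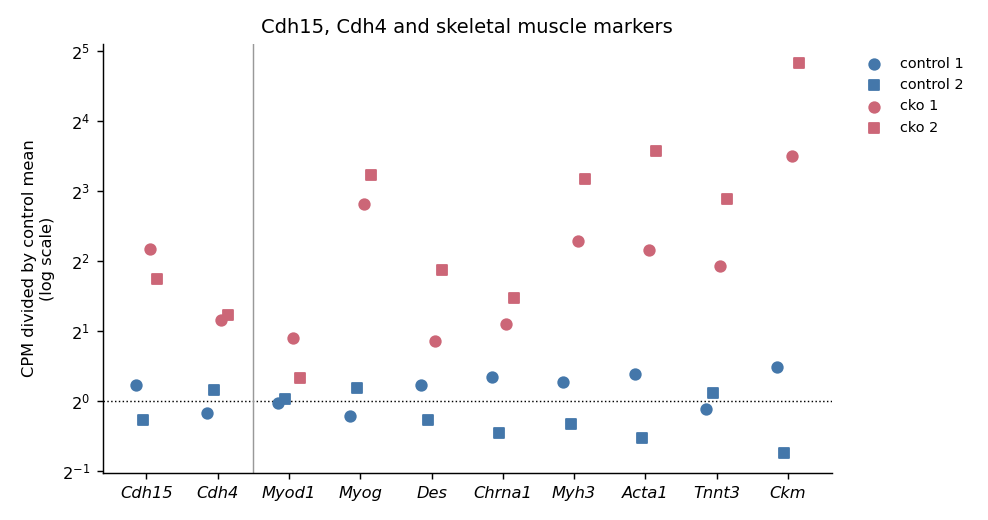
CPM in each library divided by the control mean of the gene (vertical axis, log scale) for Cdh15, Cdh4 and the 8 tested skeletal muscle markers, with control libraries in blue, cko libraries in red, circles for replicate 1 and squares for replicate 2. All cko points lie above the control points, and cko replicate 1 is the higher of the cko pair for Cdh15 and Myod1 and the lower for Cdh4 and the other 7 markers.

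Other cell types were read in the same way, over 9 marker lists in all with 58 genes, of which 54 were tested and 5 called, all higher. Beside the muscle genes the fifth was Olig2, of the oligodendrocyte lineage list, whose summed level was 226 and 183 CPM in control and 246 and 271 CPM in cko libraries (2 genes with an unadjusted p under 0.05, 2 in DESeq2). Olig2 kept its call without cko replicate 2 and lost it without control replicate 1 (log2 fold change 1.04), control replicate 2 (1.38) or cko replicate 1 (1.22). Endothelial markers gave 0 calls, although the unadjusted p was under 0.05 in 6 of 6, 5 passed in DESeq2, 4 without the filter on low counts and 6 under the replicate block. Their summed level was 229 and 193 CPM in control and 311 and 309.8 CPM in cko libraries, so that it moved with Cdh4 and Cdh15, with its part in their differences not tested. Astrocyte and Bergmann glia markers summed to 649 and 741 CPM in control and 558 and 603 CPM in cko libraries (0 of 6 called, 3 with an unadjusted p under 0.05, 1 passing in DESeq2 and 2 with the block), in the direction of Cdh2 and Cdh13, with their part not tested. The summed epithelial and choroid plexus markers did not separate by genotype, at 20.2 and 4.34 CPM in control and 32.0 and 2.94 CPM in cko libraries (0 of 5 called, 0 with an unadjusted p under 0.05, 0 in DESeq2). That sum mostly followed 1 gene, Ttr, at 17.9 and 2.64 CPM in control and 29.9 and 0.943 CPM in cko libraries, higher in replicate 1 of each pair. Inhibitory interneuron markers (77.8 and 87.2 CPM in control, 103 and 90.7 CPM in cko) and Purkinje cell markers (42.7 and 40.8 CPM in control, 57.0 and 50.7 CPM in cko) had 0 calls each, with 1 gene each at an unadjusted p under 0.05 and 0 and 1 passing in DESeq2. Meningeal fibroblast and microglia markers had 0 calls, 0 genes at an unadjusted p under 0.05 and 0 in DESeq2, with summed levels of 169.6 to 183 and 177 to 207 CPM.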

How the data were processed

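RNA-Seq of purified P7 GCps was analysed for 2 control and 2 cko libraries; the ATAC-Seq and H3K4me1 samples were not analysed here. The authors deposited raw counts, in whole reads for each Ensembl gene, without normalization, 1 file per library. The methods and processing notes state that reads were trimmed with Trim Galore 0.4.1, aligned to mm10 with TopHat2 2.0.14 and counted over Ensembl 75 genes with HTSeq 0.6.1p1 in its strict intersection mode, leaving out alignments of quality under 3. The strand setting of HTSeq was not given in the sources used here; exons of the 6 members overlap no other gene. Gene names, lengths and coordinates came from GENCODE vM21 for 37607 of 38924 genes.

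Genes kept by filterByExpr (16436) were tested with edgeR 4.0.16 in R 4.3.3 (TMM scaling, robust quasi-likelihood test, Benjamini-Hochberg adjustment, threshold 0.05, no covariate), after the steps had been tested on simulated data. Standard errors were taken as the absolute log2 fold change over the root of the F statistic. Intervals use the total degrees of freedom of the fit, prior plus residual, so they borrow from other genes. CPM are per TMM-scaled library size, and levels per kilobase the union of annotated exons. Replicate libraries differed by more than counting noise (chi-square per degree of freedom 50.5 for control, 94.1 for cko). Floors and limits on counts cover counting error only. Alternatives were DESeq2 1.42.0, its size factors, no filter, a replicate block, leaving out each library over the same tested genes, total counts as library sizes and other gene lengths.

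The members and gene lists were chosen with earlier results of these data known. The text names the members; in each pathway list the called genes, or otherwise the most abundant gene per length; in each marker list up to 2 called genes; the 4 genes nearest in pattern to Cdh4 and Cdh15 whose log2 CPM averaged 1 or more; and the nearest tested protein-coding genes. Other list genes named (Ctnna2, Ctnna3, Afdn, Fgfr1, Adipoq, Snai1, Nectin1, Nectin3, Zic1, Atoh1, Pax6, Neurod1, Ptch1, Ccnd2, Myh3, Tnnt3, Myf5, Pax7, Myod1, Ttr) were chosen after their values were seen. Protein sequences were not used here; cut sites and motifs were found in the translated reading frame of the longest protein-coding transcript, with a basic site written as arginine, any residue, lysine or arginine, arginine, and first repeats were aligned with the BLOSUM62 matrix.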

Additional observations from a re-analysis of the deposited data

How the results depend on the processing

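Of 40 values of the log2 fold change of the 5 tested members under 8 alternatives, 0 reversed. With a library left out, Cdh15 ran from 1.74 to 2.24, at 1.75 without control replicate 2. Each such fit leaves a single library in a genotype. Since Cdh4 and Cdh15 were chosen as higher, these values describe them and test nothing. The number of all genes called moved more, to 458 higher and 433 lower in DESeq2, 387 higher and 340 lower without the filter on low counts, and 38 to 264 higher and 45 to 338 lower with a library left out, the lowest without control replicate 2 and the highest without cko replicate 2. With the replicate number as a block the counts were 530 higher and 480 lower, with 1 signaling partner (Fgfr1) called lower and 6 of 6 endothelial markers higher; the deviations of same-numbered libraries correlated at 0.19, which with 2 pairs does not show that the numbers pair them, and the block changed no member's call. Among the lists, 1 E-cadherin repressor (Zeb1) was called higher in DESeq2, without the filter and with the block, 0 to 1 nectins (Nectin1) were called higher with a library left out, and 1 to 2 type II cadherins lower, the call of Cdh7 being lost without control replicate 2 and without cko replicate 1. With total counts as library sizes, the control level was 0.647 CPM for Cdh3 and 13.8 CPM for Cdh13. Over the longest annotated transcript, levels per kilobase were 65.7 in control and 58.8 in cko for Cdh2, 16.0 in cko for Cdh4, and 3.08 in control and 2.48 in cko for Cdh13; the longest protein-coding transcript, added after seeing the data, gave 3.71 and 2.99 for Cdh13 and the same values for Cdh2 and Cdh4. These shifts follow from the lengths alone. Depth limits Cdh1 and Cdh3, with at most 3 and 50 reads per library.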
